A study of Drosophila melanogaster with 56 samples.

Results

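The genes described here encode subunits of the vacuolar proton pump (V-ATPase) and 5 other lysosome proteins of Drosophila melanogaster. Members were chosen by symbol: every annotated gene whose symbol starts with Vha followed by a digit or a capital letter, and the named lysosome genes cathD, Lamp1, spin, Npc1a and Hexo2. This gave 36 of 11982 genes on the array, 31 of them V-ATPase genes, read from 37 probe sets because Vha16-1 has 2. Vha68-1 and Vha68-2 (catalytic A subunit), Npc1b, Gba1a, Gba1b and Hexo1 are not analysed here, so the A subunit is represented only by Vha68-3. Expression was measured on 56 Affymetrix arrays of total RNA from flies sampled after 0, 24 and 48 h without food, in 6 pools of flies. Each pool was divided into antenna, maxillary palp with proboscis (palp hereafter), head and body. The groups at 0, 24 and 48 h held 4, 5 and 5 arrays in antenna and 5, 5 and 4 arrays in each of the other parts. Strain, sex and age are not given in the labels used here. The 0 h flies are labelled baseline, and the later groups have no fed counterpart, so effects of fasting cannot be told apart from those of elapsed time or age.

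The V-ATPase uses ATP to pump protons into lysosomes, endosomes and secretory vesicles, and in some epithelia across the plasma membrane. Its cytosolic V1 sector (subunits A to H) binds and hydrolyses ATP, and its membrane-embedded V0 sector (subunits a, c, d and e, with related proteolipids) carries the protons. In flies many subunits are encoded by several genes, of which some are used broadly and others in few tissues. The acid that the pump makes is what lysosomal hydrolases such as cathepsins and hexosaminidases need in order to work, and nutrient stress is known to act on both the pump and lysosome formation.

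Values are log2 signals, which ran from 2.08, the lowest signal on the arrays, to 15.4. A gene was counted as measured in a body part when 4 or more arrays of that part gave a signal of at least 4. Differences are in log2 units with the standard error from limma, and "rose", "fell" or "called" is used only for a Benjamini-Hochberg adjusted p under 0.05 over all features tested. Levels are compared within a gene and across arrays, since different probe sets are not on a common scale. The samples were bulk tissue, in which fewer cells of a type and less RNA per cell cannot be told apart. Several marker lists followed the labelled parts at 0 h. The 2 photoreceptor markers averaged 14.2 in head, 9.07 in antenna (arrays 8.55 to 9.38), 8.99 in palp (7.21 to 10.33) and 2.17 in body. The 9 testis markers averaged 13.4 in body and 3.00 in head. The 5 olfactory neuron markers averaged 7.98 in antenna, 5.80 in palp and 2.28 in head. The fat body list was higher in head (9.33) than in body (6.71), where 3 of its 5 markers stayed under 4 on all 0 h arrays. Single arrays carried transcripts of other tissues, such as the palp 24 h array of replicate 2, whose testis mean was 10.8. All 5 hemocyte markers fell at 48 h in each part, with median differences of -1.18 (antenna), -1.20 (palp), -1.51 (head) and -2.26 (body); their part in the results below was not tested.

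The members fell into 2 classes by where they were measured, and a single gene stood between them. Of the 36, 23 were measured in all 4 parts: 18 V-ATPase genes and the 5 lysosome genes. Another 12 V-ATPase genes were measured in body only: Vha68-3, Vha36-2, Vha14-2, Vha100-3, Vha100-5, Vha16-2, Vha16-3, Vha16-4, Vha16-5, VhaPPA1-2, VhaAC39-2 and VhaM9.7-d. Vha100-4, which encodes a V0 subunit a, was measured in body and head. Of the 504 values of the 12 body-only genes on the 42 arrays of the other parts, 446 lay within 0.1 of the lowest signal and 6 reached 4. Of these 6, 2 came from the palp array with testis transcripts, where Vha68-3 was 6.58 and Vha36-2 was 7.81. In body, 11 of the 12 reached 4 on all arrays, and Vha16-4 did not. Each body-only gene has a broadly measured counterpart for the same subunit (Vha36-1 beside Vha36-2, Vha16-1 beside Vha16-2 to Vha16-5), except Vha68-3, whose counterparts are not analysed here. In the RefSeq gene table, Vha16-3 and Vha16-2 are neighbouring protein-coding genes, both body-only, and Vha100-4 neighbours Vha100-2, which was measured in all 4 parts.

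**Figure D1:**
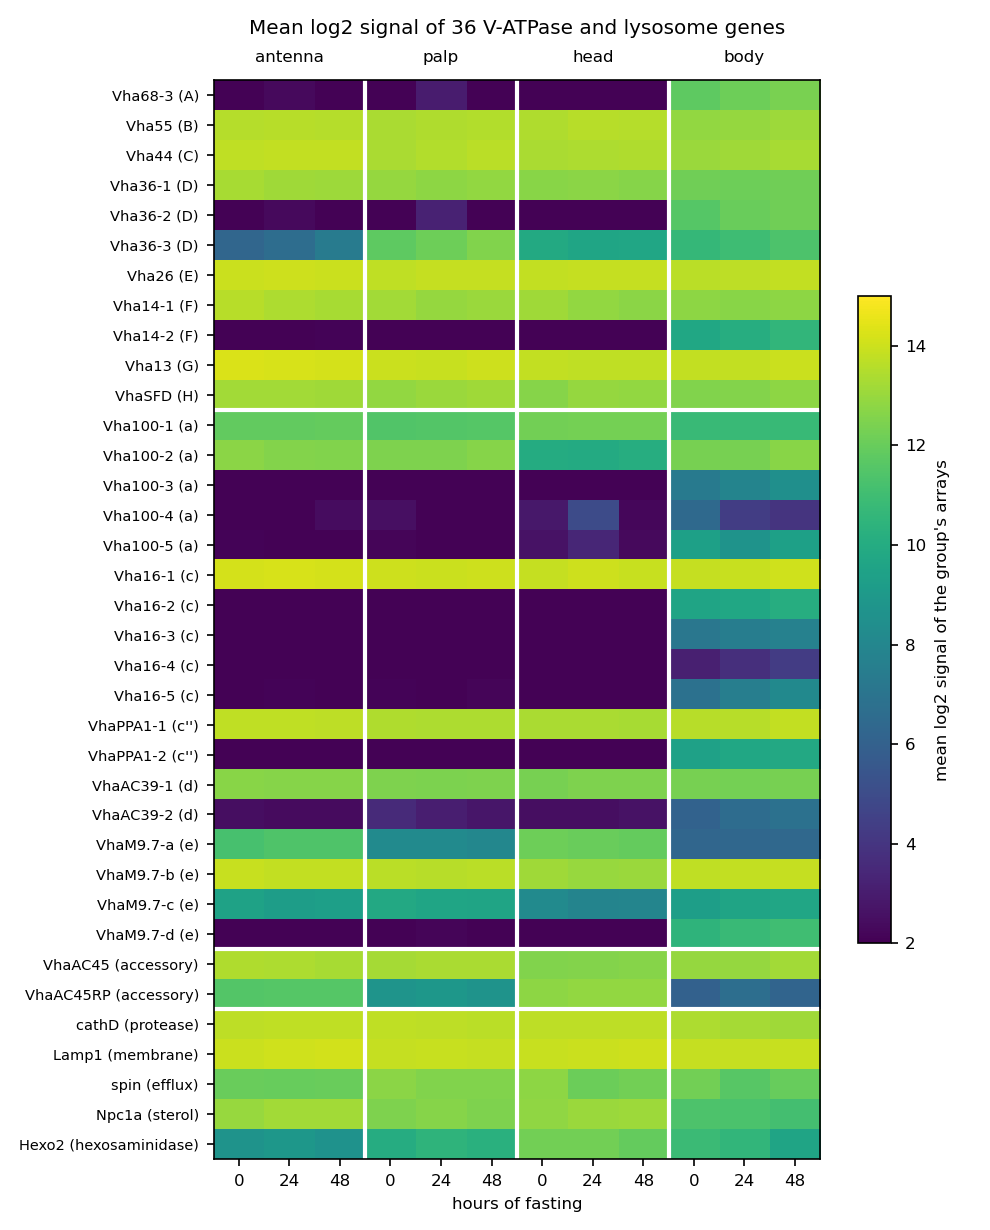
Mean log2 signal (colour) of the 36 genes (rows, with the subunit or role in brackets) in the 12 groups of body part and hours of fasting (columns); white lines separate V1, V0, accessory and lysosome genes, and colours are to be compared along rows. The 12 body-only genes are dark outside body, and most of the others keep their colour across the columns.

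The 23 members measured everywhere differed less between the body parts than most genes did. The range of a member's 4 means at 0 h had a median of 0.77, against 1.69 over the 7180 features measured in all 4 parts. It was under 1 for 14 members (60.9%), against 26.4% of those features. Their signals were also high: 11 of the 23 had a mean of at least 13, against 6.23% of features. Lamp1, a heavily glycosylated lysosomal membrane protein, had the narrowest range over all 56 arrays, from 13.70 to 14.21. Vha26, the E subunit of the peripheral stalk, ran from 13.55 to 14.07, and VhaAC39-1, the V0 subunit d, from 12.18 to 12.79.

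Among the broadly measured members, the ranges of the 0 h means were widest for VhaAC45RP (6.71), VhaM9.7-a (5.81), Vha36-3 (5.49), Hexo2 (3.53) and Vha100-2 (2.74). Vha100-2 (subunit a) was lowest in head, where its 5 arrays ran from 9.52 to 10.38. Its medians were 12.74 in antenna, 12.48 in palp and 12.27 in body, and no array of those parts overlapped with head. It was higher than in head by 2.74 ± 0.13 in antenna, 2.51 ± 0.12 in palp and 2.33 ± 0.12 in body (limma, adjusted p = 3.52e-12, 5.87e-12 and 2.66e-12). Its paralogue Vha100-1, which is best known from neurons, was highest in head, with medians of 12.25 in head, 11.85 in antenna, 11.48 in palp and 10.75 in body. The differences of Vha100-1 from head were -0.34 ± 0.09, -0.75 ± 0.09 and -1.40 ± 0.09 in antenna, palp and body.

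VhaAC45RP, related to the accessory subunit AC45, was highest in head, with a 0 h mean of 12.77 ± 0.09 (SD, n = 5). Its mean in antenna was 11.53 ± 0.14 (n = 4), and palp and body had 8.70 ± 0.28 and 6.06 ± 0.79 (n = 5 each), and all 3 parts were lower than head. VhaM9.7-a, a subunit e gene, had the same order, from 12.11 ± 0.27 in head through 11.20 ± 0.34 in antenna and 8.24 ± 0.33 in palp to 6.30 ± 0.38 in body. The mean of the 3 neuron markers measured followed a similar order, from 9.31 in head through 8.97 and 6.78 (antenna, palp) to 3.98 in body; its part in these levels was not tested.

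Vha36-3, a D subunit gene for the central rotor stalk, was highest in palp (11.78 ± 0.36) and lowest in antenna (6.29 ± 0.62), with body at 10.66 ± 0.12 and head at 9.90 ± 0.29. Hexo2, a beta-hexosaminidase, was highest in head (12.22 ± 0.15) and lowest in antenna (8.70 ± 0.47). Npc1a, which moves cholesterol out of late endosomes and lysosomes, was lower in body than in head by 1.49 on the log2 scale (11.34 against 12.84). The body-only genes lay above head in body by 3.61 to 9.72 log2 units, which is a description, since the class was set by signal in body and its lack elsewhere.

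Counted together, 19 of 35 members tested differed between antenna and head (13 higher, 6 lower), where 49% of all features did. For palp the number was 14 (9 higher, 5 lower; the body-only VhaAC39-2 was among the higher, at 3.57 against 2.50) against 53.9%, and for body 30 against 86%. The body calls include 11 body-only genes, whose direction the definition of their class fixed. Of the 23 broadly measured members, 6 were higher and 12 lower in body. Over all 11150 features, 3511 were higher and 6074 lower in body. Cyclic loess scaling gave 5357 higher and 4036 lower, so the main direction over all features depended on the scaling. Between antenna and head, all 19 calls were among the 23 broadly measured members, and none of the 11 body-only genes tested was called. Of the V-ATPase genes measured everywhere, 17 of 18 differed between antenna and head, 13 of them higher in antenna. The 49% is over features measured in at least 1 part at 0 h. No share was computed over features measured in all 4 parts, so these counts have no like share beside them. The call of Vha26 ended when the pool was a block, both in antenna (0.16 ± 0.07, adjusted p = 0.0525) and in body (-0.12 ± 0.06, adjusted p = 0.0758).

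In antenna, few of these genes differed between the times. None of the 23 members tested was called between 0 and 24 h (limma; 5.73% of all features were, and 1 member had an unadjusted p under 0.05). Between 0 and 48 h, 2 were called, 1 higher and 1 lower, where 17.6% of features were called, 8.61% higher and 8.97% lower. The median absolute difference at 48 h was 0.08 over the members and 0.21 over all features tested. None was called between 24 and 48 h, where 0.1% of features were and 1 member had an unadjusted p under 0.05. A fit of all arrays together called 1 member and 0.58% of features.

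Vha36-3 rose in antenna. Its signals were 5.85, 5.78, 6.40 and 7.12 at 0 h, 6.45, 6.99, 6.55, 6.67 and 6.58 at 24 h, then 7.66, 7.42, 7.17, 7.25 and 7.66 at 48 h. All 5 arrays at 48 h lay above all arrays at 0 and 24 h. The difference between 48 and 0 h was 1.14 ± 0.23 (adjusted p = 0.00533).

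Vha14-1, the F subunit of the rotor stalk, fell by 0.28 on the log2 scale (SE 0.07, adjusted p = 0.0219). Its signals were 13.57, 13.51, 13.53 and 13.77 at 0 h, against 13.35, 13.33, 13.32, 13.24 and 13.34 at 48 h. The 0 h and 48 h arrays were fully separate, and the 24 h arrays, from 13.31 to 13.55, overlapped with both. As a block, the pool brought its difference to -0.23 ± 0.08 (adjusted p = 0.0981). It was also not called without the 48 h array of replicate 5 (adjusted p = 0.0545) or the 0 h array of replicate 4 (0.0632).

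Vha36-1, the broadly expressed D subunit gene, was the next member by p. Its signals were 13.26, 13.33, 13.32 and 13.31 at 0 h, against 13.05, 13.06, 13.20, 13.02 and 13.13 at 48 h. These did not overlap, but the difference of -0.21 ± 0.08 was not called (adjusted p = 0.0687). The other 20 members had differences at 48 h between -0.20 and 0.21.

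In palp, members that passed the test at 48 h all rose. Of 23 tested, 1 was called at 24 h, where 23.5% of features were, and 3 at 48 h, where 33.1% were (17.4% higher, 15.7% lower). The median absolute difference at 48 h was 0.10 over the members and 0.29 over all features. None was called between 24 and 48 h by limma, where 4.22% of features were and 1 member had an unadjusted p under 0.05. With a covariate for RNA quality that is described below, 1 member and 8.83% of features were called.

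Vha36-3 in palp had signals of 11.97, 12.02, 12.04, 11.68 and 11.20 at 0 h, 12.24, 12.25, 12.13, 12.22 and 11.83 at 24 h and 12.22, 12.64, 12.57 and 12.76 at 48 h. The 48 h arrays lay above the 0 h arrays and overlapped with those at 24 h. The rise at 48 h was 0.76 ± 0.17 (adjusted p = 0.00441).

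Vha44, the C subunit that clamps V1 to V0 and is released when the pump is taken apart, rose by 0.30 ± 0.08 (adjusted p = 0.00995). Its signals were 13.28, 13.45, 13.30, 13.39 and 13.33 at 0 h, 13.41, 13.69, 13.56, 13.47 and 13.37 at 24 h and 13.73, 13.65, 13.58 and 13.63 at 48 h. All 48 h arrays were above all 0 h arrays.

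VhaSFD, the regulatory H subunit, was also called in palp, at 0.22 ± 0.08 (adjusted p = 0.0449). Its signals were 12.90, 12.91, 12.83, 12.94 and 12.98 at 0 h, against 13.30, 13.05, 13.07 and 13.08 at 48 h, which did not overlap. The call ended with the pool as a block (0.26 ± 0.10, adjusted p = 0.0761). It also ended without any 1 of the 48 h arrays of replicates 1, 3 and 4 or the 0 h arrays of replicates 1, 2, 3 and 4 (adjusted p from 0.0612 to 0.15).

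The member called in palp at 24 h was Vha14-1, which fell by 0.23 on the log2 scale (SE 0.07, adjusted p = 0.0235). Its 0 h arrays ran from 13.15 to 13.21 and its 24 h arrays from 12.80 to 13.04. Its adjusted p was 0.0667 with the pool as a block, and Hexo2 was called instead, at 0.62 ± 0.18 (adjusted p = 0.0359). Without the 24 h array of replicate 5 no member was called (Vha14-1, adjusted p = 0.0582).

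In head, spin fell and stayed low. At 24 h 3 of 24 members were called, where 17.2% of features were, and at 48 h 4 were, 2 higher and 2 lower, where 25.5% of features were (13.2% higher, 12.3% lower). The median absolute difference at 48 h was 0.12 over the members and 0.29 over all features.

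The gene spin (spinster) encodes a lysosomal efflux transporter needed to renew lysosomes after autophagy. Its signals in head were 12.86, 12.90, 12.58, 12.80 and 12.84 at 0 h, 12.09, 12.28, 11.79, 12.05 and 12.24 at 24 h and 12.25, 12.15, 12.35 and 12.25 at 48 h. No array at 24 or 48 h reached the lowest at 0 h. The difference was -0.70 ± 0.10 at 24 h (adjusted p = 0.000479) and -0.55 ± 0.11 at 48 h (0.00232).

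VhaSFD rose in head, by 0.33 ± 0.08 at 24 h (adjusted p = 0.0104) and 0.26 ± 0.08 at 48 h (0.0328). Its signals were 12.68, 12.57, 12.63, 12.53 and 12.78 at 0 h, 12.94, 12.96, 12.94, 12.89 and 13.09 at 24 h and 12.84, 12.79, 12.98 and 12.98 at 48 h. The later arrays were all above those at 0 h.

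Vha14-1 fell in head at 48 h, by 0.42 on the log2 scale (SE 0.13, adjusted p = 0.0354). Its signals were 13.18, 13.16, 13.16, 13.09 and 13.13 at 0 h, 13.10, 12.54, 13.16, 12.93 and 12.74 at 24 h and 12.69, 12.97, 12.81 and 12.43 at 48 h. The 48 h arrays all lay below those at 0 h, and the 24 h arrays overlapped with both. Npc1a rose by 0.27 ± 0.09 (adjusted p = 0.0413), with 12.76, 13.01, 12.70, 12.69 and 13.02 at 0 h, 13.05, 13.10, 12.98, 13.04 and 13.11 at 24 h and 13.11, 13.18, 13.08 and 13.06 at 48 h. Its 48 h arrays were all above those at 0 h.

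These last 3 calls in head at 48 h were not firm. Between 1 and 4 members were called when a single head array was left out. The count was 2 without the 48 h array of replicate 1 or the 0 h array of replicate 1 or 2, and 1 without the 48 h array of replicate 3 or 4 or the 0 h array of replicate 3 or 4. Adjusted p without such an array ran from 0.0652 to 0.0992 for VhaSFD, from 0.0551 to 0.125 for Vha14-1 and from 0.0709 to 0.101 for Npc1a. Once the pool was a block, 2 subunit e genes were called as lower at 48 h, VhaM9.7-c (-0.77 ± 0.14, adjusted p = 0.00257) and VhaM9.7-a (-0.39 ± 0.12, 0.0291); the block called 49.8% of all features in that comparison. Without the block their differences were -0.32 ± 0.32 and -0.16 ± 0.18 (adjusted p = 0.485 and 0.517). At 24 h the block raised the count from 3 to 5, by VhaM9.7-c (-0.68 ± 0.13, adjusted p = 0.00386) and Npc1a (0.27 ± 0.07, 0.0188), where the share over all features went from 17.2% to 43.9%.

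Vha100-4 was the third member called in head at 24 h, with signals of 2.08, 4.14, 2.08, 2.08 and 3.81 at 0 h, 5.22, 5.18, 4.18, 4.27 and 5.94 at 24 h and 2.08, 2.08, 2.68 and 2.08 at 48 h. All 24 h arrays were above all others, most of which were at the lowest signal. Of the 6 head arrays with a signal of at least 4, 5 were those at 24 h, so the gene was tested in head only because it was high there, and the calls are no independent support for that difference. The difference was 2.12 ± 0.45 between 24 and 0 h (adjusted p = 0.00655) and -2.73 ± 0.48 between 48 and 24 h (0.0187). This was the single call of 24 between 24 and 48 h, where 1.37% of features were called, and none was called without the 48 h array of replicate 1 or 4 or the 24 h array of replicate 1 (adjusted p from 0.0529 to 0.0605). The mean of 4 midgut digestive enzyme genes also averaged highest at 24 h on the head arrays. It was 7.98 at 0 h (2.63 to 13.74), 12.25 at 24 h (10.92 to 12.99) and 9.46 at 48 h (6.63 to 11.40). At 48 h the midgut mean was thus above that at 0 h, while Vha100-4 reached at most 2.68. The 0 h array with the highest Vha100-4 signal, replicate 2, also had the highest midgut mean (13.74). That midgut mean was above every 24 h array, while the Vha100-4 signal of the same array (4.14) was below every 24 h array. The part of midgut transcripts in this result was not tested.

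**Figure D2:**
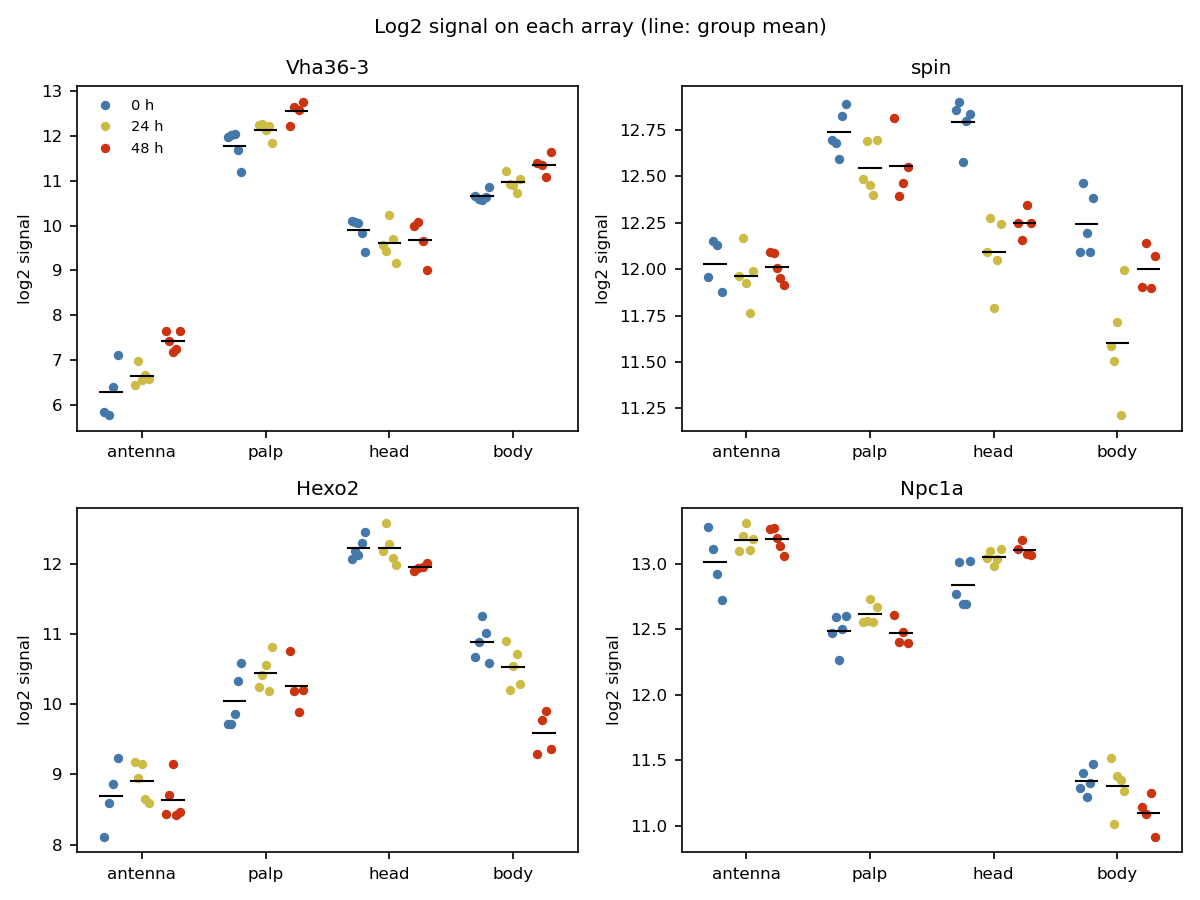
Log2 signal on every array (points; black lines are group means) of Vha36-3, spin, Hexo2 and Npc1a in the 4 body parts at 0, 24 and 48 h. Vha36-3 is higher at 48 h than at 0 h in antenna, palp and body, spin is lower in head, and Hexo2 is lower in body.

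In body, most of the members that changed by 48 h were V-ATPase genes that rose, and the share called was near that of all features. At 48 h 17 of 36 members were called, 14 higher and 3 lower, where 50.8% of features were called, 29.8% higher and 21% lower. The median difference was 0.18 over the members and 0.10 over all features, and the median absolute difference was 0.26 and 0.45. By class, 7 of the 18 V-ATPase genes measured everywhere rose and none fell, 7 of the 12 body-only genes rose and none fell, and 2 of the 5 lysosome genes fell and none rose. Over the 7180 features measured in all 4 parts, 22.8% rose and 21.6% fell. Fewer were called at 24 h (4 of 36, against 21.2% of features) and between 24 and 48 h (3 of 36, against 6.44%).

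Among the broadly measured V1 subunits, Vha36-3 had signals of 10.65, 10.60, 10.57, 10.63 and 10.87 at 0 h, 11.22, 10.93, 10.91, 10.73 and 11.04 at 24 h and 11.39, 11.34, 11.07 and 11.63 at 48 h. Every 48 h array was above every 0 h array, and the rise was 0.69 ± 0.12 (adjusted p = 0.000729). The pool block called it also at 24 h (0.42 ± 0.09, adjusted p = 0.0142) and between 24 and 48 h (0.39 ± 0.09, 0.0399). Vha44 (0.25 ± 0.06), VhaSFD (0.25 ± 0.08) and Vha13, the G subunit of the peripheral stalk (0.17 ± 0.06), rose by less. Vha55 (B), Vha26 (E) and Vha14-1 (F) were not called, with differences of 0.18, 0.12 and 0.03.

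Of the V0 subunits, Vha100-2 rose by 0.35 ± 0.08 at 48 h (adjusted p = 0.00374). Its signals were 12.27, 12.48, 12.33, 12.23 and 12.26 at 0 h, 12.31, 12.36, 12.26, 12.38 and 12.25 at 24 h and 12.53, 12.79, 12.67 and 12.67 at 48 h. The 48 h arrays were above all earlier ones, and the change came between 24 and 48 h (0.35 ± 0.08, adjusted p = 0.0191; 0.0561 and 0.0623 without the 48 h arrays of replicates 2 and 4). The accessory subunit VhaAC45 rose by 0.26 ± 0.07 (adjusted p = 0.0107, and 0.0513 with the pool as a block).

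Vha16-1, the main proton-carrying proteolipid c, rose by 0.16 ± 0.06 by its brighter probe set (adjusted p = 0.0456), a size near the shift of 0.10 over all features. Its second probe set differed by 0.06 ± 0.11 in body and was not called (adjusted p = 0.683). The second probe set was called as lower in antenna at 48 h (-0.44 ± 0.14, adjusted p = 0.0441) and in palp at 24 h (-0.59 ± 0.20, 0.0454), where the brighter was not called, so the probe sets of Vha16-1 disagree.

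**Figure D3:**
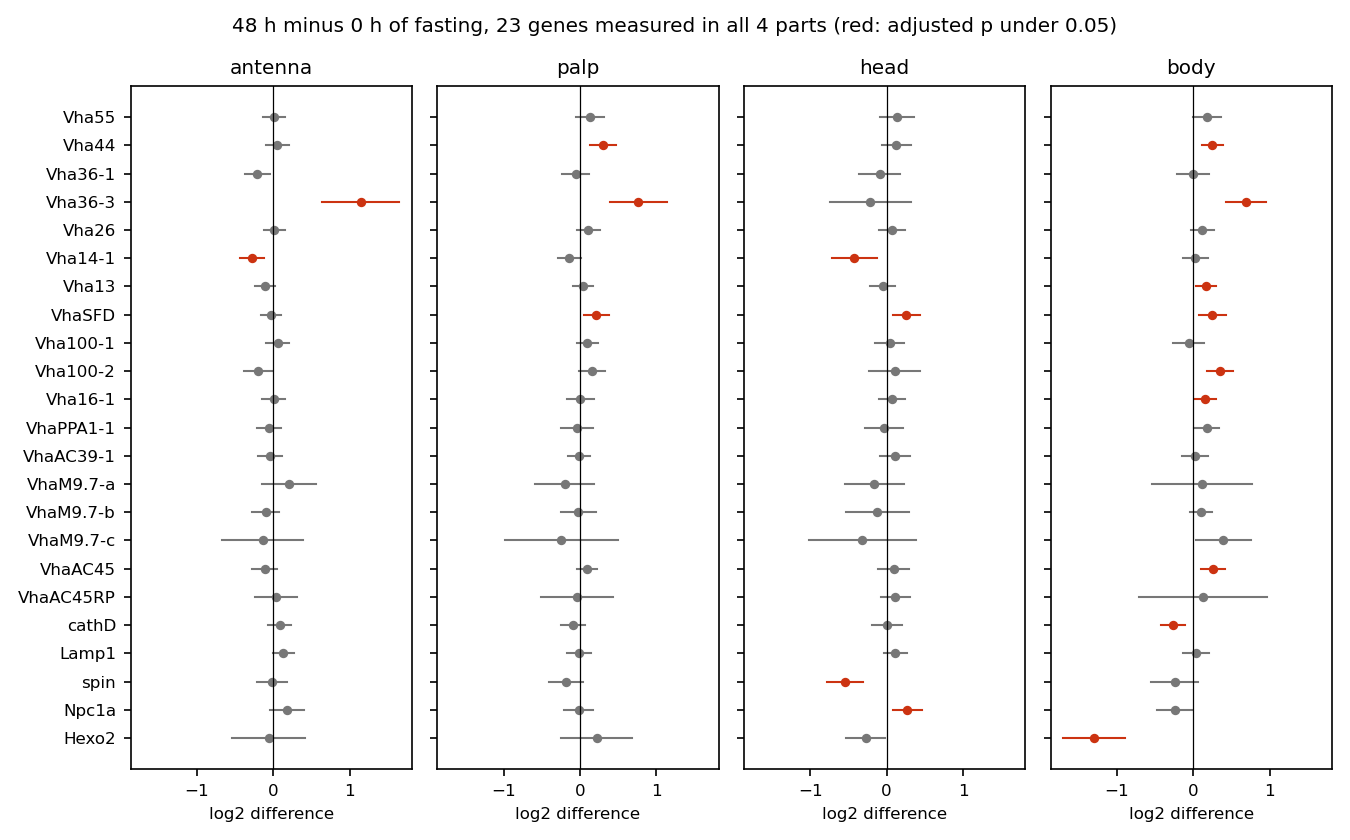
Difference in log2 signal between 48 and 0 h (points) with its 95% confidence interval (lines) for the 23 genes measured in all 4 parts, by body part; red marks an adjusted p under 0.05. Vha36-3 lies to the right of zero in antenna, palp and body, spin to the left in head and Hexo2 to the left in body, and most other genes lie near zero.

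The 12 body-only genes had a positive difference at 48 h in every case, from 0.02 to 1.32 with a median of 0.59. For Vha16-4 the filter fixed this in part: its 4 body arrays with a signal of at least 4 were 3 at 48 h and 1 at 24 h, and none was at 0 h, so its differences here and below are given as a description. The 7 that rose were Vha16-5 (1.32 ± 0.31), Vha100-3 (1.19 ± 0.46), Vha14-2 (0.82 ± 0.24), Vha36-2 (0.60 ± 0.16), Vha68-3 (0.58 ± 0.15), VhaM9.7-d (0.58 ± 0.16) and Vha16-2 (0.50 ± 0.19). They thus cover subunits A, D and F of V1 and a, c and e of V0. Over all 1670 features measured in body only, 57.9% rose, 16.4% fell, 79.3% had a positive difference and the median difference was 0.52. The share of 58.3% rising among these V-ATPase genes is thus near that of other body-only features.

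Vha16-5, a proteolipid c gene, had signals of 7.02, 6.96, 7.20, 6.54 and 6.56 at 0 h, 6.88, 7.46, 8.24, 7.15 and 8.18 at 24 h and 8.44, 8.35, 7.39 and 8.53 at 48 h. The 48 h arrays were above those at 0 h, and replicate 3 was the lowest of them. In head Vha16-5 was at 2.08 on all 14 arrays. The same body array was the lowest of the 48 h group for 10 of the 12 body-only genes, and the 24 h array of replicate 1 was the lowest of its group for 10 of 12. Without body 48 h replicate 3, 21 members were called at 48 h, Vha16-3 (0.84, adjusted p = 0.0109), Vha16-4 (1.53, 0.0132) and VhaAC39-2 (1.13, 0.0101) among them, and 5 between 24 and 48 h. Without body 24 h replicate 1, 9 were called at 24 h, Vha68-3 among them (0.47 ± 0.10, adjusted p = 0.00705). These 2 arrays are shown because they were low for the body-only genes. Leaving them out therefore raises most differences of those genes, and the added calls are no support. The share over all features was not computed for these fits.

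The testis markers moved with the body-only genes. The mean of 9 was 13.42 at 0 h (13.34 to 13.49), 13.53 at 24 h and 13.67 at 48 h (13.51 to 13.76), 4 of the 9 rose at 48 h, and their median difference was 0.20. Body 48 h replicate 3 and body 24 h replicate 1 had the lowest testis mean of their groups (13.51 and 13.42). All 8 accessory gland markers fell, with a median difference of -1.13. The part of these tissues in the result was not tested.

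**Figure D4:**
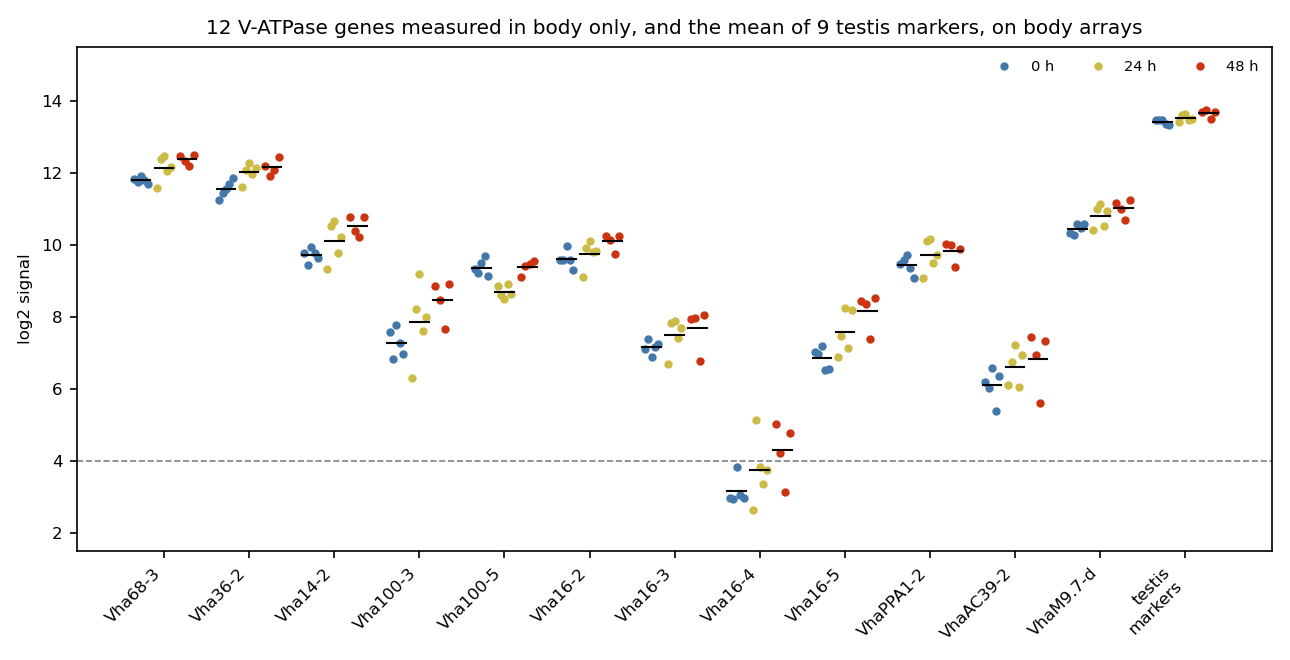
Log2 signal on each body array (points; black lines are group means) at 0, 24 and 48 h for the 12 V-ATPase genes measured in body only and for the mean of 9 testis markers; the dashed line is the signal of 4 used to call a gene measured. Most groups step upward with time, and Vha100-5 dips at 24 h.

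The body-only genes did not all follow the same course at 24 h. Vha100-5 (subunit a) fell by 0.67 on the log2 scale at 24 h (SE 0.13, adjusted p = 0.00255) and was called as higher again between 24 and 48 h (0.70 ± 0.14, 0.0105). Its 0 h arrays ran from 9.13 to 9.68, its 24 h arrays from 8.50 to 8.91 and its 48 h arrays from 9.12 to 9.57, so the 24 h arrays lay apart from both. Vha36-2 was already called at 24 h (0.45 ± 0.15, adjusted p = 0.0468). VhaM9.7-d was called there too with the pool as a block (0.47 ± 0.14, adjusted p = 0.0477). Without any 1 of the 24 h arrays of replicates 2, 3 and 5 or the 0 h arrays of replicates 1, 2 and 4, the number of members called at 24 h was 2. Vha36-2 then had an adjusted p of 0.0602 to 0.108, also without the 24 h array of replicate 4 or the 0 h array of replicate 3.

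Vha100-4 fell in body, while the body-only subunit a gene Vha100-3 was called as higher at 48 h. Its body signals were 7.45, 6.40, 4.41, 7.06 and 6.97 at 0 h, 3.72, 3.88, 4.16, 5.90 and 4.25 at 24 h and 3.91, 4.45, 4.88 and 2.61 at 48 h. All but the third 0 h array were above all later arrays. The difference was -2.08 ± 0.61 at 24 h (adjusted p = 0.0277) and -2.50 ± 0.64 at 48 h (0.0077). The 24 h call ended without any 1 of the 24 h arrays of replicates 2, 3 and 5 or the 0 h arrays of replicates 1, 2, 4 and 5 (0.0516 to 0.0688). The midgut marker mean in body was 14.1 at 0 h and 13.9 at 48 h.

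Several body calls at 48 h depended on single arrays or on the block. That of Vha16-1 ended without any 1 of the 9 arrays (adjusted p from 0.0506 to 0.0948). Vha13 was not called without 48 h replicates 1, 2 or 4 or 0 h replicates 1, 2, 3 or 4 (0.0518 to 0.0904), nor were Vha16-2 (0.0718 to 0.113) and Vha100-3 (0.0546 to 0.115) without 48 h replicates 1, 2 or 4 or 0 h replicates 1, 2, 4 or 5. VhaSFD was not called without 48 h replicates 1 or 2 or 0 h replicates 3, 4 or 5 (0.0522 to 0.0819). With the pool as a block, Vha13 (adjusted p = 0.0759), Vha16-1 (0.112), Vha16-2 (0.0922) and Vha100-3 (0.0876) lost their calls, while Vha16-4 (1.48 ± 0.51, 0.045) and VhaAC39-2 (1.06 ± 0.35, 0.038) gained them. Hexo2, Vha36-3 and Vha100-2 were called in body at 48 h under all 17 settings.

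RNA quality also moved with time. The difference between 3′ and 5′ probe sets of control transcripts, which rises as RNA is degraded or copied less far, averaged in body 1.65, 1.77 and 2.03 at 0, 24 and 48 h. It went from 3.67 to 4.88 and 5.38 in head, from 2.98 to 3.90 and 3.76 in palp and from 3.65 to 4.08 and 4.10 in antenna. With it as a covariate, 5 of 36 members were called in body at 48 h, 4 higher and 1 lower, and 1 of 24 in head, where the shares over all features were 26.98% in body and 18.64% in head. In body 13 of the 17 calls were lost and 1 was gained, so most of the rises given above were not called with it. The rises of Vha36-3 and Vha100-2 were kept. The member called as lower in body was Hexo2, and the falls of cathD and Vha100-4 were not called. Cyclic loess scaling of the body arrays left 11 calls, 7 higher and 4 lower (44.9% of all features), and among all features 1883 higher and 2309 lower against 2782 and 1960.

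Hexo2 fell more than any other broadly measured member. Its body signals were 10.67, 10.88, 11.25, 11.02 and 10.58 at 0 h, 10.90, 10.20, 10.55, 10.72 and 10.29 at 24 h and 9.29, 9.78, 9.90 and 9.36 at 48 h. The 48 h arrays lay below all others. The difference was -1.30 ± 0.19 between 48 and 0 h (adjusted p = 0.000157) and -0.95 ± 0.19 between 48 and 24 h (0.0108), and that between 24 and 0 h was not called. Only 2 of the 5 fat body markers were tested in body, and both fell at 48 h, with differences of -7.37 and -0.84. The mean of all 5 was 6.71 at 0 h (arrays 6.32 to 6.98) and 6.04 at 48 h (4.55 to 8.78). The part of fat body transcripts in this result was not tested. In the other parts the difference of Hexo2 at 48 h was -0.06 in antenna, 0.22 in palp and -0.27 in head, none of them called.

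The aspartic protease gene cathD fell in body by 0.27 on the log2 scale (SE 0.07, adjusted p = 0.00977). It was not called there with the 3′ minus 5′ covariate. Its signals were 13.44, 13.50, 13.41, 13.37 and 13.35 at 0 h, 13.35, 13.24, 13.15, 13.33 and 13.22 at 24 h and 13.07, 13.18, 13.24 and 13.10 at 48 h, without overlap between 0 and 48 h. Elsewhere it moved little. In antenna it was 13.73, 13.69, 13.72 and 13.63 at 0 h and 13.75, 13.94, 13.71, 13.75 and 13.73 at 48 h. The palp arrays gave 13.78, 13.72, 13.71, 13.65 and 13.85 at 0 h, then 13.76, 13.64, 13.63 and 13.58 at 48 h. The head arrays gave 13.84, 13.72, 13.65, 13.62 and 13.67, then 13.79, 13.51, 13.73 and 13.78. The groups overlapped in these 3 parts, and none of the differences was called (0.08 in antenna, -0.09 in palp).

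In body, spin dipped at 24 h, by -0.64 ± 0.13 (adjusted p = 0.00466). Its signals were 12.09, 12.46, 12.19, 12.09 and 12.38 at 0 h, 11.58, 11.50, 11.71, 11.21 and 12.00 at 24 h and 11.90, 12.14, 11.90 and 12.07 at 48 h. The 24 h arrays lay below those at 0 h, and at 48 h the difference from 0 h was -0.24 and not called. The antenna held spin at 11.96, 12.15, 12.13 and 11.88 at 0 h and 12.09, 12.09, 12.01, 11.95 and 11.91 at 48 h, which overlap throughout. The palp values of 12.70, 12.68, 12.59, 12.83 and 12.89 at 0 h and 12.82, 12.39, 12.46 and 12.55 at 48 h also overlapped, with a difference of -0.18 ± 0.10 that was not called.

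Lamp1 was not called in any part at any time. Between 0 and 48 h its mean went from 13.98 to 14.11 in antenna, from 13.87 to 13.86 in palp, from 13.91 to 14.02 in head and from 13.86 to 13.90 in body. The 95% confidence intervals of its difference between 48 and 0 h lay between -0.17 and 0.27 in all 4 parts. Npc1a had body signals of 11.29, 11.41, 11.22, 11.33 and 11.48 at 0 h and 11.14, 11.09, 11.25 and 10.92 at 48 h. Its difference there, -0.24 ± 0.11, was not called (adjusted p = 0.0699), and it was called without the 48 h array of replicate 3 (-0.29, 0.0469). In antenna Npc1a ran from 12.72 to 13.28 at 0 h and from 13.06 to 13.27 at 48 h, and in palp from 12.26 to 12.60 and from 12.40 to 12.61, with overlap in both.

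Whether a gene changed differently in different parts was tested directly, with head as the common comparison, so that the 3 contrasts share the head arrays. In antenna 2 of 36 members differed from head in their change between 0 and 48 h, where 4.43% of features did. Vha36-3 was higher by 1.36 ± 0.29 (1.14 in antenna, -0.21 in head; adjusted p = 0.00186) and spin by 0.53 ± 0.16 (-0.02 against -0.55; 0.0372). In palp 1 of 36 differed, where 3.71% of features did: Vha36-3, by 0.98 ± 0.29 (adjusted p = 0.0487, and 0.0556 with the pool as a block). In head the Vha36-3 signals were 10.11, 10.08, 10.07, 9.83 and 9.41 at 0 h, between 9.16 and 10.23 at 24 h and 9.99, 10.08, 9.65 and 9.02 at 48 h, which overlap.

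The antenna contrast of Vha36-3 was called under all 25 settings, with adjusted p from 5.86e-05 to 0.0224. That of spin was called under 13 of 25 (0.00426 to 0.101), and the palp contrast of Vha36-3 under 9 of 25 (0.0173 to 0.226). Arrays whose removal left 1 call in antenna were 48 h replicates 1, 2 and 3 and 0 h replicates 1 and 4 of antenna, and 48 h replicates 1 and 4 and 0 h replicates 1, 2 and 4 of head. Those that left 0 in palp were 48 h replicates 2, 3 and 4 and 0 h replicates 4 and 5 of palp, and 48 h replicates 3 and 4 and 0 h replicates 1, 2, 3 and 4 of head.

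In body 12 of 36 members differed from head in their change, where 19.8% of features did, 9 upward and 3 downward. The 3 downward were lysosome genes: Hexo2 (-1.02 ± 0.28, adjusted p = 0.00595), Npc1a (-0.51 ± 0.13, 0.00288) and cathD (-0.27 ± 0.09, 0.0358). Npc1a thus differed between body and head although its change in body alone was not called. Upward were the broadly measured Vha36-3 (0.91 ± 0.29, 0.0228), Vha14-1 (0.45 ± 0.12, 0.00676) and Vha13 (0.22 ± 0.07, 0.0266), and 6 body-only genes. For these body-only genes the contrast is close to their change in body, because their head signals lay at or near the lowest signal, and the error of the joint fit includes those arrays. Vha16-4, which passed the filter only through fasted arrays, is among the 6. Vha14-1 was not called in body alone, and most of its contrast is its fall in head, whose call was not firm. Vha100-4 differed by -1.89 ± 0.71 (adjusted p = 0.0523, and 0.0393 with the pool as a block). The body contrasts of Hexo2, Npc1a and Vha14-1 were called under all 25 settings, and that of Vha36-3 under 23. That of Vha13 was called under 19 (limma, adjusted p up to 0.0801) and that of cathD under 15 (up to 0.109). The 6 body-only genes were called under 24 or 25.

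Lysosome genes outside the members were called in both directions, with more falling than rising in body. Of 64 such genes on 5 lists, with hydrolases, membrane proteins, tethering factors and regulators, 51 were tested in antenna, palp and head and 53 in body. At 48 h 3 rose and 4 fell in antenna, 13 rose and 9 fell in palp, 9 rose and 11 fell in head, and 7 rose and 14 fell in body. The shares called were 13.7%, 43.1%, 39.2% and 39.6% in antenna, palp, head and body, against 17.6%, 33.1%, 25.5% and 50.8% of all features. In body the 5 lists together were thus not called more often than all features, but the lists differed. Glycosidases and lipid hydrolases accounted for 9 of the 14 that fell in body, and 1 of the 16 tested rose. Their share called in body was 62.5%, against 50.8% of all features, where 21% of features fell. In antenna, palp and head 15.38%, 53.85% and 46.15% of the 13 tested were called. Among the 9 were LManII, a lysosomal alpha-mannosidase (-1.07 ± 0.17), Gal, a beta-galactosidase (-2.02 ± 0.31), and LManI (-2.91 ± 0.57). The 2 fat body markers tested in body fell as given for Hexo2, and 2 of the 4 tested fell in each other part. Differences of those 4 ran from -8.56 to 1.41 in antenna, -6.55 to 0.75 in palp and -5.26 to 0.94 in head. The part of fat body transcripts in the hydrolase values was not tested. LManII also fell in antenna (-0.78 ± 0.13), palp (-0.70 ± 0.14) and head (-1.19 ± 0.15). Of 5 lysosomal proteases tested per part, 1, 2, 1 and 1 rose at 48 h and 0, 1, 1 and 1 fell (antenna, palp, head, body). The shares called among them were 20%, 60%, 40% and 40%.

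Of 6 genes for lysosome regulation tested per part, 2, 3, 1 and 3 rose at 48 h (antenna, palp, head, body) and none fell. The shares called were 33.3%, 50%, 16.7% and 50%, against 17.6%, 33.1%, 25.5% and 50.8% of all features. REPTOR, a transcription factor released when TORC1 activity is low, was called at 48 h in antenna (0.93 ± 0.25), palp (0.79 ± 0.26) and body (1.66 ± 0.42), and in head its difference was 0.68 ± 0.24 (adjusted p = 0.0531). Its partner REPTOR-BP rose in all 4 parts, by 0.39 to 0.45. Mitf, the fly homologue of the TFEB family that controls V-ATPase and lysosome genes, was not called in any part (0.25, 0.13, 0.22 and 0.04 in antenna, palp, head and body). ATP6AP2, an accessory subunit outside the symbol rule, had differences of -0.33, -0.22, -0.32 and 0.06, none called.

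Of the membrane and transport genes of the lysosome, 13 were tested in antenna, palp and head and 12 in body. None rose and 1 fell in antenna, 3 rose and 3 fell in palp, 2 rose and 6 fell in head, and 1 rose and 4 fell in body. The shares called were 7.69%, 46.15%, 61.54% and 41.67%, against 17.6%, 33.1%, 25.5% and 50.8% of all features. Lerp, the receptor that sorts lysosomal enzymes, rose in palp (1.29 ± 0.17), head (0.54 ± 0.17) and body (0.61 ± 0.14). Npc2b, a sterol-binding partner of the Npc1 proteins, fell in palp (-0.27 ± 0.07), head (-1.07 ± 0.32) and body (-0.84 ± 0.14). Of the 14 tethering genes tested in each part, 1, 3, 3 and 1 were called in antenna, palp, head and body (7.14%, 21.4%, 21.4% and 7.14%), in each part a smaller share than that of all features. Vps33B was among them, rising in palp (0.98 ± 0.13), head (0.63 ± 0.15) and body (1.48 ± 0.26).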

How the data were processed

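Total RNA of 56 samples was amplified and labelled with NuGEN Ovation kits and hybridised to 1-colour Affymetrix arrays, per the labels. The deposited values are log2 signals that the authors made with GCRMA, per the submitters' processing notes; the sources used here name no version. Every array had a median of 4.04 and sorted arrays differed by at most 0.033, so quantile scaling over all parts was already in the values, and a change in total RNA cannot be read from them.

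Of 18952 probe sets, 183 controls were left out; 13646 had 1 gene, 402 several and 4721 none. The 11982 genes were each read from the probe set with the highest mean signal, which with the unnamed probe sets gave 17105 features. The body 48 h array with conflicting replicate numbers in its labels was named by its title.

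Tests used limma 3.58.1 in R 4.3.3: a fit per body part on features with log2 signal of at least 4 on at least 4 of its arrays, a fit of the 0 h arrays for unfasted differences, and a fit of all 56 arrays for differences between parts in the change, all two-sided. The number of arrays limits the precision. Pools are replicates, so p-values measure the spread between pools of flies. The labels give the pool of each array; residuals of arrays of the same pool correlated by 0.12, 0.13, 0.20 and 0.11 in antenna, palp, head and body, against -0.02, -0.03, -0.04 and -0.02 for other pools. The main tests had no pool block, and a block is given where it changed a call.

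Every member could be named. Values on every array are given for the 3 members of lowest p at 48 h in each part, for cathD, Lamp1, spin and Npc1a, and for the member with the lowest p in each contrast between parts; Vha100-4 was added after its values were seen, and long series are shortened to ranges for Lamp1 and Npc1a. Other lysosome genes are named up to 3 per list and part by lowest p; a gene so named in a part may also have its values in other parts given. The members, lists and the 5 arrays set aside were chosen with earlier results of these data known. Alternatives were no filter, a pool block, a single fit, every probe set, a 3′ minus 5′ covariate, cyclic loess, the 5 arrays left out, and each array left out in turn. The scripts were tested on simulated data, and matplotlib 3.10.9 (Python 3.11.15) drew the figures.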

Additional observations from a re-analysis of the deposited data

Results flagged for a closer look

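In 6 of 90 groups of 4 or 5 arrays checked, a single array lay far from the others, where chance gives about 1 in 20. Vha14-1 was lowest on antenna 48 h replicate 5 (13.24, next 13.32), Vha36-3 was lowest on palp 24 h replicate 5 (11.83, next 12.13) and highest on body 0 h replicate 5 (10.87, next 10.65), and VhaSFD was highest on palp 48 h replicate 1 (13.30, next 13.08). Vha16-5 was lowest on body 48 h replicate 3 (7.39, next 8.35), and cathD was highest on antenna 48 h replicate 2 (13.94, next 13.75).

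The change from 0 to 48 h differed between a body part and head in 15 cases by limma's test of the difference. In antenna these were Vha36-3 (1.36) and spin (0.53), and in palp Vha36-3 (0.98). In body they were Vha16-5 (1.32), Vha100-3 (1.19), Vha16-4 (1.15, tested only through its fasted arrays), Vha36-3 (0.91), Vha14-2 (0.82), VhaM9.7-d (0.58), Vha16-2 (0.50), Vha14-1 (0.45), Vha13 (0.22), cathD (-0.27), Npc1a (-0.51) and Hexo2 (-1.02).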

How the results depend on the processing

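Within a body part, no call between 48 and 0 h changed direction under the alternatives. With the pool as a block, antenna at 48 h had 1 call and head at 24 h 5; across all comparisons the block ended 11 calls and made 11 others, each given above, and changed no other call. The covariate for 3′ minus 5′ signal gave 3 calls in palp at 24 h, 1 in palp between 24 and 48 h, 1 in head at 48 h and 5 in body at 48 h. Without a filter there were 0 in head and 7 in body between 24 and 48 h, and 2 in body at 24 h. A single fit of all arrays gave 1 in antenna between 24 and 48 h, 10 in body at 24 h and 9 in body between 24 and 48 h, and cyclic loess 11 in body at 48 h. Without the 5 arrays set aside, head at 48 h had 2 and the change in antenna against head 1. The change in palp against head had 0 calls without a filter, with the block, with every probe set, with cyclic loess and without the 5 arrays. The cause was not tested. With each array left out, calls ranged from 1 to 2 (antenna, 48 h), 0 to 1 (palp, 24 h), 2 to 3 (palp, 48 h), 3 to 4 (head, 24 h), 1 to 4 (head, 48 h), 0 to 1 (head, 48 against 24 h), 2 to 9 (body, 24 h), 12 to 21 (body, 48 h) and 2 to 5 (body, 48 against 24 h). They ranged from 18 to 19, 13 to 15 and 29 to 30 for unfasted antenna, palp and body, and from 1 to 3, 0 to 1 and 9 to 15 for the changes against head. Shares over all features were not computed with single arrays left out. Signals near 2.08 set a limit: differences of genes at that level understate or miss changes.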
